A study of Mus musculus with 6 samples.

Results

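The expression profile of untreated B16F10 cells was taken from the 2 arrays titled as controls, of 6 arrays in the series. B16F10 is a pigmented mouse melanoma line, here obtained from RIKEN and kept in RPMI1640. Cells were seeded in 6-well plates, and 24 h later the medium was replaced by fresh medium alone (control) or by medium with 2.5 µM or 40 µM of the compound that the labels call di-sq, for 48 h. Each of the 3 groups held 2 arrays of the same cell line, and nothing in the labels says that they came from separate cultures, so the spread between arrays of a group may be technical. Biotin-labelled cRNA from total RNA was read on Affymetrix mouse arrays with 1 colour. Each of 19505 genes was represented by 1 transcript cluster, the highest by its 6-array mean, and genes were ranked by the mean of their deposited log2 values on the 2 control arrays.

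Melanocytes, the pigment cells from which melanoma arises, make melanin inside melanosomes, organelles related to lysosomes. Tyrosinase starts the pathway from tyrosine, and its relatives Tyrp1 and Dct act on later intermediates, on a fibrillar matrix built from Pmel. The transcription factor MITF drives many of these genes through E-box elements in their promoters, together with SOX10 and PAX3, and the melanocortin receptor Mc1r raises MITF through cAMP.

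Background was set from the array itself. The 5222 negative control features had a 95th percentile of 9.98 on control replicate 1 and 9.94 on control replicate 2, and a gene was called above background when its control mean was over their mean of 9.96. For calls on a single array, that array's own 95th percentile served (9.80 to 10.06 over the 6 arrays), and for a treated group the mean over its own arrays. These features were themselves widely spread, with a median of 6.01 and a 99th percentile of 13.53 and 13.61 on the control arrays, while the 95th percentile of the 23 antigenomic background features was 6.79. A gene under 9.96 is therefore not shown to be silent, and only genes under 6.01 are described as lying below the median of the negative controls. Of the 19505 genes, 4002 (20.5%) were above background, 5414 (27.8%) lay between the levels and 10089 (51.7%) were below the median of the negative controls. The control arrays agreed closely, with r = 0.9976 across genes, which are not independent replicates, and a median SD of 0.051 among genes above background against 0.10 among the others. No gene above background differed by more than 0.5 between them, and the widest gap was that of Tyms, thymidylate synthase, at 10.14 and 10.62. Log2 values of different genes come from different probes, so their order describes array signal and not the order of transcript abundance.

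**Figure D1:**
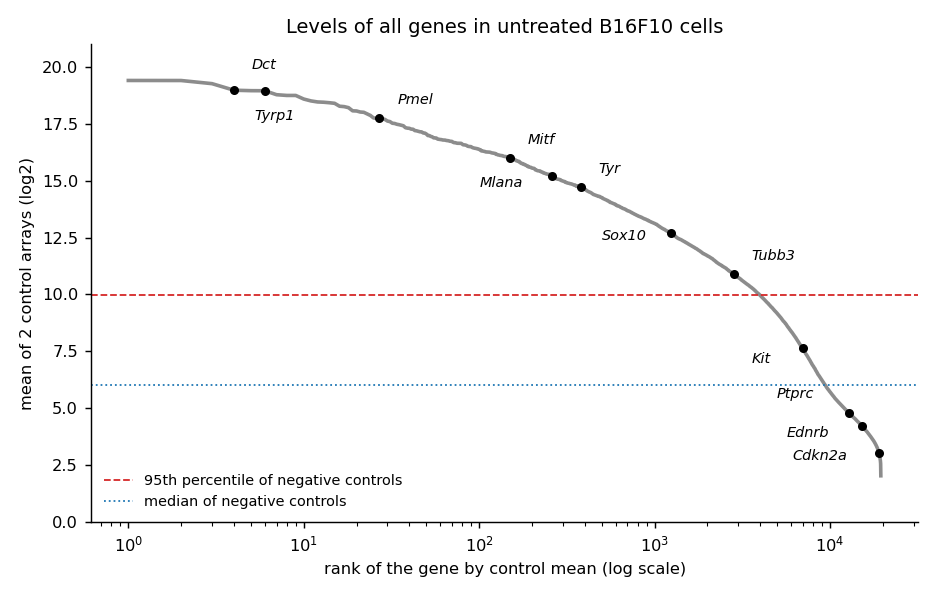
Mean log2 level on the 2 control arrays (y axis) of all 19505 genes against their rank (x axis, log scale), with 12 genes marked by points, the background level as a dashed line at 9.96 and the median of the negative controls as a dotted line at 6.01. Dct, Tyrp1 and Pmel stand at the upper end, Mitf, Mlana, Tyr and Sox10 are above the dashed line, Kit lies between the lines, and Ptprc, Ednrb and Cdkn2a lie under the dotted one.

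Pigment genes were among the strongest signals of the array. Of the 30 genes with the highest control means, 4 belonged to the melanosome: Dct in rank 4, Tyrp1 in rank 6, Gpnmb, a melanosomal glycoprotein, in rank 7 and Pmel in rank 27. Ranks 1 and 2 were held by Eef1a1, an elongation factor of translation (19.39 and 19.40), and Actb, cytoplasmic actin (19.37 and 19.42), and Rmrp, the RNA of RNase MRP, was in rank 3 (19.25 and 19.27). The endoplasmic reticulum gave Hspa5, its main chaperone (18.92 and 18.98), Calr, a lectin chaperone, and Stt3a, a subunit of the oligosaccharyltransferase that glycosylates new proteins. Rab7, the small GTPase of late endosomes, was in rank 11 (18.49 and 18.50), and Fth1, the ferritin heavy chain, in rank 12 (18.44 and 18.47). Glycolysis was represented by Gapdh, Pkm and Aldoa, tubulin by Tuba1c, Tubb5 and Tuba1b, and translation also by Eef2 and Eprs. Ywhae, a 14-3-3 protein, Hnrnpk, an RNA-binding protein, and the locus 2610005L07Rik were also among them. The last 7 were histone genes, H3c13, H3c14, H3c15, H4c1, H4c4, H2ac10 and H2ac22, and H3c14 and H3c15 had the same values to 2 decimals (18.68 and 18.80). Probes may not tell apart such near-identical histone copies, nor the tubulin genes, so the level of a single copy is uncertain.

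The 4 lineage markers named for this cell line were all well above background. Tyrp1 measured 18.97 and 18.92 (mean 18.95 ± 0.031 SD, n = 2) and Dct 18.97 and 18.97 (18.97 ± 0.0044). Tyr, the rate-limiting enzyme of melanin synthesis, measured 14.72 and 14.69 (14.70 ± 0.023, rank 379), and Mitf 16.03 and 15.95 (15.99 ± 0.056, rank 149). None of these 4 genes went against the labelled cell type, and none had a gap between the control arrays of more than 0.1. The wider lists below were mixed. Above background were 11 of 15 melanin synthesis genes, 6 of 11 lineage factors and 1 of 8 receptors and ligands, against 20.5% of all genes.

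Over the whole list of melanin synthesis enzymes and melanosome matrix proteins, 11 of 15 members were above background, against 20.5% of all genes, with a median of 14.86 against 5.83. Gpnmb measured 18.76 and 18.78, and Pmel, the matrix protein, 17.74 and 17.73. The solute carriers Slc45a2 (15.55 and 15.55) and Slc24a5 (14.81 and 14.90), which set the ionic conditions in the melanosome, Mlana (15.16 and 15.23), the MART-1 antigen, and the cystine transporter Slc7a11 (15.07 and 15.13) followed. Trpm1, a channel gene known as melastatin, measured 13.47 on both arrays, and Atp7a, the copper pump that supplies tyrosinase, 10.56 and 10.65. These 11 genes were above background on every array of the series. The remaining 4 members were not above background on any of the 6 arrays. They were Oca2, the melanosomal anion channel of the pink-eyed dilution locus (9.49 and 9.53), the receptor Gpr143 (7.85 and 7.80), the channel Tpcn2 (7.44 and 7.21) and the transporter Mfsd12 (5.69 and 5.82), the last of them below the median of the negative controls.

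Promoters of these genes were read from RefSeq (build GRCm38.p6, 250 bases before to 50 after the annotated start, 300 in all) to look for the M-box core, the E-box variant TCATGTG to which MITF is known to bind, on either strand. A promoter in this window was present for 11 of the 15 genes, and 6 of the 11 (54.5%) held the motif, against 552 of 15691 measured genes with a promoter (3.52%), 86 of 3329 genes above background (2.58%) and 3.77% of all 32851 promoters in the table. The following 5 are shown because they belong to the pigment genes whose levels are given above; capitals mark TCATGTG or, where the motif lies on the other strand, its reverse complement CACATGA. Tyr lies at chr7:87493463-87493762 on the minus strand, Tyrp1 at chr4:80833963-80834262 on the plus strand, Dct at chr14:118052197-118052496 on the minus strand, the first of the Trpm1 promoters at chr7:64153585-64153884 on the plus strand and Slc24a5 at chr2:125067877-125068176 on the plus strand. All are written in the direction of transcription.
Tyr: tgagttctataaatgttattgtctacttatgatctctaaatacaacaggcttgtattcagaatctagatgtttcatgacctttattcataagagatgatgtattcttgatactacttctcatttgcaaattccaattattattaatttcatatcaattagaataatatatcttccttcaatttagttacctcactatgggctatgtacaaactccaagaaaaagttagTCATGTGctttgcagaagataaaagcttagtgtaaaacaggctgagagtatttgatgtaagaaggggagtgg
Tyrp1: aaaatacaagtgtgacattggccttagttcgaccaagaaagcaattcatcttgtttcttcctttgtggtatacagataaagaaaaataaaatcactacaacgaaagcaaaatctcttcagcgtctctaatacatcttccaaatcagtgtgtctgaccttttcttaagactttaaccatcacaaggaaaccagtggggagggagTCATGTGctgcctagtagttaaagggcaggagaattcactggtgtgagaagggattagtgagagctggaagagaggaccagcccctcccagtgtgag
Dct: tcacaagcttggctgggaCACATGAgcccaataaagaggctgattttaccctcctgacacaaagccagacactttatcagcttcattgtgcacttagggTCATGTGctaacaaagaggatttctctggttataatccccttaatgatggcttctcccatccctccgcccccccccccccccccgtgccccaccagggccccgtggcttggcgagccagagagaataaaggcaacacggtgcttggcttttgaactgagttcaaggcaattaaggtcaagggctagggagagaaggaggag
Trpm1: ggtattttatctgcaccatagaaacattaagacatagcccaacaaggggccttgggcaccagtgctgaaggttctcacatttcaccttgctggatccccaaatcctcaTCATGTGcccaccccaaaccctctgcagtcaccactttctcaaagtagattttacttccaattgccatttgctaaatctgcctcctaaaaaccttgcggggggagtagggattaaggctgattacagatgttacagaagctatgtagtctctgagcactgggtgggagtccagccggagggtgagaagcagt
Slc24a5: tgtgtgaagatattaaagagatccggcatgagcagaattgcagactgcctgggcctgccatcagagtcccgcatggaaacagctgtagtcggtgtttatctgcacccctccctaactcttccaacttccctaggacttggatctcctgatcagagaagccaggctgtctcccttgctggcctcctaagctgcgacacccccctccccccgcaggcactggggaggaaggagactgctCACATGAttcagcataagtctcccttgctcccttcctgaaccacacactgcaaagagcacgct

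Counted from the annotated start, with bases before it negative, the motif began at -22 in Tyr, -47 in Tyrp1, -142 in Trpm1 and, on the opposite strand, -13 in Slc24a5. The Dct promoter held it at -232, on the opposite strand, and again at -151. Slc7a11 held it at -75 and Mc1r, from the receptor list, at -52. A match is a description of these letters and not of a binding site. All 6 genes of the melanin synthesis list that held the motif were above background. Oca2, Gpr143, Tpcn2 and Mfsd12 were not among these 6. Only 11 of the 15 listed genes had a promoter, so some of them may not have been searched. Gpnmb, in rank 7, had no such letters in this window. A relation between match and level was not tested. Among melanosome biogenesis and transport genes 1 of 22 held the motif, Hps1, which was not above background. Among the lineage transcription factors 0 of 7 held it. It was also present in 4 of 17 lysosomal genes (23.5%), 3 of 15 genes of the PI3K list (20%) and 2 of 11 of fatty acid synthesis (18.2%). The palindromic E-box CACGTG, a motif that neither contains TCATGTG nor lies within it, had another distribution. It was present in 8 of 22 melanosome biogenesis and transport genes (36.4%) and in 6 of 17 lysosomal genes (35.3%), against 9.26% of all genes and 12.8% of those above background. The highest share of any list was that of the germ cell markers, 6 of 11 (54.5%), none of which was above background.

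The melanin synthesis list had a low CpG content. The median ratio of observed to expected CpG dinucleotides was 0.269 over this list, against 0.823 over all genes above background and 0.594 over all genes. The other pigment lists were higher, with 0.81 for melanosome biogenesis and transport, 0.637 for receptors and ligands and 0.465 for the lineage transcription factors. Across the array the median ratio was 0.261 for promoters of genes with control means up to 4, and 0.328 between 4 and 6. It was 0.697 between 6 and 8, and from 0.77 to 0.841 in the 5 higher ranges. The share of promoters with TATAAA on either strand, the letters of a common core promoter element, was 20% for genes up to 4, 17.2% between 4 and 6 and 18.2% for those over 16, with 5.77% to 7.7% in the 5 ranges between 6 and 16. Of the replication histone genes, 10 of 15 held these letters, against 14.6% of all genes with a promoter.

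**Figure D2:**
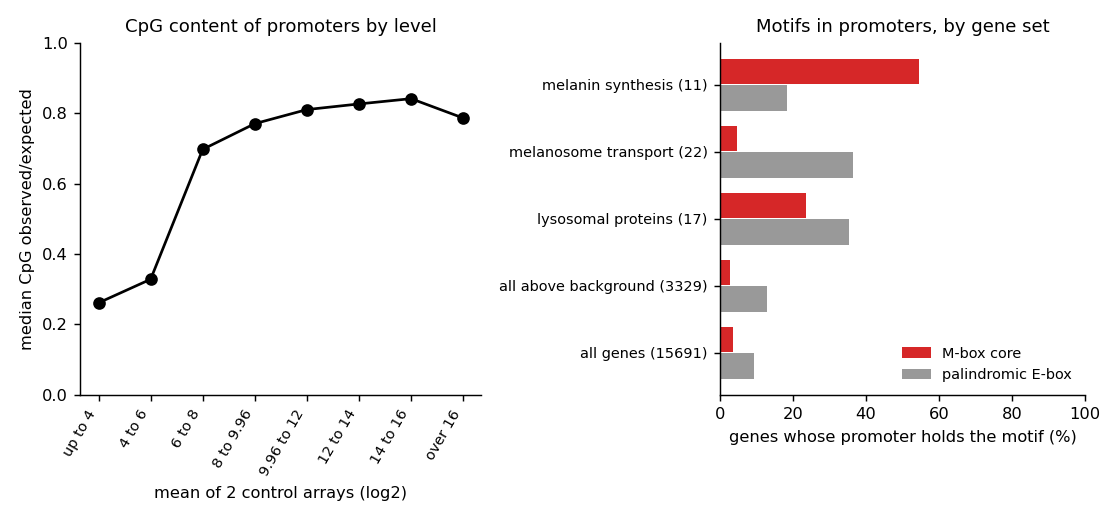
Left, median ratio of observed to expected CpG in 300-base promoters (y axis) by range of the mean log2 level on the 2 control arrays (x axis). Right, percent of genes (x axis) whose promoter holds TCATGTG (M-box core, red) or CACGTG (palindromic E-box, grey), for 5 gene sets with their number of genes in parentheses; the red bar of melanin synthesis genes is at 54.5% and that of all genes at 3.52%, while the grey bars of melanosome transport (36.4%) and lysosomal genes (35.3%) are longer than that of all genes (9.26%).

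Genes that build and move melanosomes were above background in 14 of 26 cases, against 20.5% of all genes, with a median of 10.27. The genes for the GTPase, motor and linker of the complex that carries melanosomes along actin were above background. The GTPase Rab27a measured 15.34 and 15.50, the motor Myo5a 15.08 and 15.10 and the linker Mlph 13.29 and 13.19. Rab38, which directs cargo to melanosomes, measured 15.05 and 15.04, and the adaptor subunits Ap3d1 and Ap3b1 of the AP-3 complex 14.65 and 14.71, and 13.52 and 13.49. Cd63, a tetraspanin that takes part in Pmel sorting, measured 14.52 and 14.47. At the other end were some, but not all, of the genes of Hermansky-Pudlak syndrome and of the BLOC complexes, which sort melanosomal cargo. Hps3 had a mean of 6.84, Hps1 6.08, Hps6 5.90, Bloc1s4 5.50 and Bloc1s5 8.07, all not above background on any array, and Dtnbp1, another BLOC subunit, lay near the level at 9.98 and 10.16.

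Of the lineage transcription factors, 6 of 11 measured members were above background, against 20.5% of all genes. After Mitf came Ets1 (14.99 and 15.11), Pax3 (14.09 and 13.96), Tfap2a (13.71 and 13.55), Sox10 (12.71 and 12.67) and Tfe3, a relative of MITF (10.55 and 10.53). The control arrays lay close together for each of these 6 genes, and each was above background on all 6 arrays of the series. Sox9 (9.44 and 9.69), Sox5 (9.28 and 9.14) and Tfeb (7.51 and 7.32) lay between the levels. Irf4, a factor that acts with MITF on tyrosinase (4.03 and 4.17), and Lef1, a WNT effector (3.88 and 4.19), were below the median of the negative controls.

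Among melanocyte receptors and ligands, Mc1r alone was above background, at 14.50 and 14.56. That is 1 of 8 members (12.5%), against 20.5% of all genes. The stem cell factor receptor Kit, which normal melanocytes need for survival and migration, measured 7.32 and 7.94, and its ligand Kitl 4.65 and 4.90. The endothelin receptor Ednrb measured 4.62 and 3.82 and its ligand Edn3 4.38 and 4.43, all below the median of the negative controls. The gap of 0.80 between the control arrays for Ednrb was the widest of this list. Erbb3, the neuregulin receptor, measured 8.44 and 8.29, Frzb, a secreted WNT antagonist, 7.69 and 7.99, and Pomc, the precursor of melanocortin peptides, 6.27 and 5.86.

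**Figure D3:**
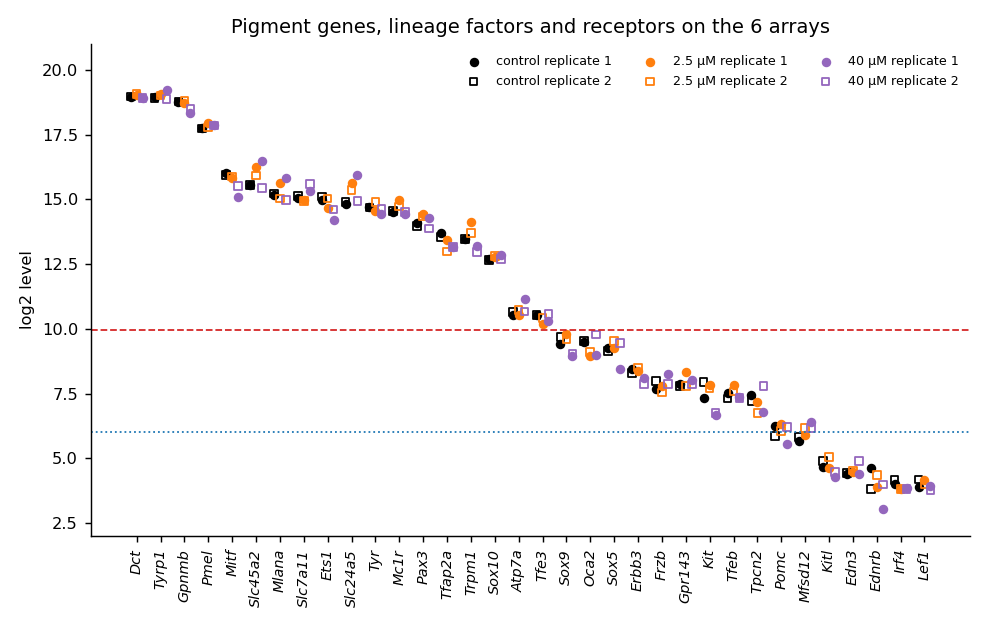
Log2 level (y axis) of pigment genes, lineage transcription factors and receptors or ligands (x axis, ordered by control mean) on each of the 6 arrays; filled circles are replicate 1 and open squares replicate 2 of control (black), 2.5 µM (orange) and 40 µM (purple), the dashed line is the background level of 9.96 and the dotted line the median of the negative controls at 6.01. The 2 control symbols overlap for most genes above the dashed line and spread for Kit and Ednrb, and replicate 1 at 40 µM lies above both control symbols for Mlana, Slc45a2 and Slc24a5.

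Metabolic genes were above background in 101 of 167 cases (60.5%), against 20.5% of all genes. Glucose uptake and glycolysis had 13 of 26 members above background, led by Gapdh (18.40 and 18.44), Pkm, pyruvate kinase (17.86 and 17.86), Aldoa, aldolase (17.62 and 17.61), Ldha, lactate dehydrogenase (16.94 and 16.94), Pgk1 (16.80 and 16.76) and Tpi1 (16.08 and 16.01). The glucose transporter Slc2a1 measured 13.83 and 13.79 and the hexokinase Hk2 13.03 and 13.06. Isoenzymes known from other tissues were below the median of the negative controls: Hk3 of leukocytes (5.45 and 5.61), Pgk2 (3.93 and 4.09) and Ldhc (4.20 and 4.43) of testis, Slc2a4 of muscle and fat (4.52 and 3.94) and Eno2 of neurons (5.48 and 5.33). The pentose phosphate pathway had 2 of 7 members above background (28.6%, near the share of all genes), Pgd (12.27 and 12.35) and Rpe (10.95 and 10.85).

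The citric acid cycle had 15 of 23 members above background (65.2%, against 20.5% of all genes). The respiratory chain with ATP synthase had 18 of 24 (75%), with no member below the median of the negative controls. Cs, citrate synthase, measured 14.29 and 14.33 and Ogdh, of the oxoglutarate dehydrogenase complex, 13.57 and 13.64. Atp5b and Atp5a1, the catalytic core of ATP synthase, measured 15.72 and 15.69, and 13.94 and 13.88, and Cycs, cytochrome c, 14.67 and 14.79. Many citric acid cycle genes lay close to the background level, so their call is uncertain: Idh3b, Sdhc, Sdha and Mdh1 were within 0.3 above it, and Fh1, Idh1 and Dlst within 0.3 below it. The testis form Pdha2 was at 3.23 and 3.16.

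In lipid metabolism, 9 of 14 genes of fatty acid synthesis and desaturation were above background (64.3%, against 20.5% of all genes). For cholesterol synthesis the count was 7 of 17 (41.2%). The desaturases Fads2 (14.14 and 14.17), Scd1 (13.80 and 13.74) and Fads1 (13.27 and 13.27) had the higher signals of the first list along with the elongase Elovl5 (13.22 and 13.32), while Fasn, fatty acid synthase, measured 10.68 and 10.55. Srebf2, the transcription factor of the cholesterol pathway, measured 14.83 and 14.83, and its targets Cyp51, Hmgcs1 and Lss had means of 12.07, 11.81 and 11.09. Idi1 (7.34), Mvd (6.66), Mvk (5.19) and Pmvk (5.22), enzymes of the early part of the pathway, were not above background on any array.

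Iron and redox genes gave some of the highest metabolic signals. Beside Fth1, the ferritin light chain Ftl1 measured 17.12 and 17.15, and Hmox1, the heme oxygenase that frees iron from heme, 17.33 and 17.28 (rank 39). The metallothioneins Mt1 and Mt2, which bind zinc and copper, measured 14.99 and 14.96, and 13.31 and 13.31, whereas Mt3 and Mt4, known from brain and squamous epithelium, had means of 4.14 and 6.76. In all, 9 of 15 members of the iron, heme and metallothionein list were above background (60%, against 20.5% of all genes). The count was 13 of 21 for glutathione and antioxidant genes (61.9%). Txnrd1, thioredoxin reductase, measured 16.47 and 16.53, Prdx1, a peroxiredoxin, 16.05 and 16.11, and Cat, catalase, 13.92 and 13.83. Nqo1, a quinone reductase that is often induced with Txnrd1, measured 6.26 and 6.28. Lysosomal proteins were above background in 15 of 20 cases, with Lamp2 at 16.76 and 16.80, the acid glucosidase Gaa at 16.14 and 16.16 and Psap, the precursor of saposins, at 15.47 and 15.41. The cathepsins Ctss and Ctsk, known from leukocytes and osteoclasts, had means of 4.69 and 4.54.

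Signalling genes were above background in 56 of 137 cases (40.9%), against 20.5% of all genes. Receptor tyrosine kinases were mostly low, with 3 of 32 above background and 19 below the median of the negative controls. The 3 were Ddr2, a collagen receptor (16.01 and 16.10), Met, the hepatocyte growth factor receptor (14.52 and 14.55), and Insr, the insulin receptor (13.17 and 13.21). Erbb2, Erbb3, Axl, Igf1r and Ephb4 followed far below them, with means between 8.03 and 8.38. Egfr (3.43 and 3.93), Fgfr1 (3.21 and 3.40), Fgfr2 (3.58 and 3.83) and Fgfr4 (2.83 and 3.11) were among the lowest.

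Downstream of the receptors, 8 of 12 measured members of the RAS, RAF and MAPK cascade were above background (66.7%, against 20.5% of all genes). Braf measured 13.79 and 13.86, Nf1, the RAS inhibitor neurofibromin, 13.30 and 13.30, the adaptor Shc1 13.17 and 13.18, Araf 12.09 and 12.10 and Nras 11.46 and 11.53. The kinases Map2k1 (9.01 and 9.10) and Map2k2 (9.22 and 9.34) were not above background on the control arrays. Of feedback and immediate early genes 8 of 21 were above background, among them Myc (14.08 and 14.09), the ERK phosphatases Dusp6 (12.04 and 12.11) and Dusp4 (11.80 and 11.80) and the inhibitor Spred1 (11.94 and 11.81). The immediate early genes Fos (3.55 and 3.55), Egr1 (4.03 and 4.30) and Fosb (5.45 and 5.36) were below the median of the negative controls, while Jun measured 10.59 and 10.40.

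The PI3K, AKT and mTOR list had 13 of 16 members above background (81.2%, against 20.5% of all genes). They were led by Akt1 (15.43 and 15.52), Rictor of the second mTOR complex (14.64 and 14.63) and Pik3ca (12.62 and 12.69). The forms of PI3K known from leukocytes were lower, Pik3cd at 6.72 and 6.51 and Pik3cg at 3.22 and 3.64. The cAMP pathway, which lies between Mc1r and Mitf, had 10 of 16 members above background. Gnas, the stimulatory G protein, measured 15.58 and 15.47, the kinase subunits Prkar1a 13.84 and 13.93 and Prkaca 11.54 and 11.91, and Creb1 10.71 and 10.84. The adenylyl cyclases Adcy7 (9.08 and 9.20) and Adcy1 (4.64 and 4.39) were not above background. In the WNT list, 6 of 16 members were above background, including Gsk3b (16.61 and 16.54), the receptors Lrp6 (13.01 and 13.13) and Fzd7 (12.92 and 12.92) and the scaffold Apc (12.13 and 12.13). Axin2, a target gene of the pathway, measured 6.30 and 5.99, and the ligands Wnt3a and Wnt5a had means of 3.65 and 5.18. In the TGF-beta, BMP and NOTCH list, 8 of 24 members were above background, with the receptor Bmpr2 at 14.19 and 14.09. The target genes Id3 (2.41 and 2.59), Smad7 (3.90 and 4.18) and Hes1 (4.40 and 4.38) and the receptors Notch1 (4.32 and 4.25) and Notch3 (4.44 and 4.63) were below the median of the negative controls.

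Cell cycle genes were above background in 60 of 97 cases (61.9%), against 20.5% of all genes. Of cyclins, CDKs and E2F factors 10 of 18 were above background, with Ccnd2 (16.62 and 16.51), Cdk2 (16.15 and 16.22), Ccnd3 (14.29 and 14.36) and Cdk4 (14.19 and 14.20) in front and the meiotic cyclin Ccna1 at 3.82 and 3.77. Cdk1, the mitotic kinase, was not above background in the controls (9.86 and 9.50) while 19 of 23 mitosis genes were. Those included the proliferation marker Mki67 (15.99 and 15.96), the kinase Plk1 (14.73 and 14.77), the condensin subunit Smc4 (14.38 and 14.40) and the spindle factor Tpx2 (13.37 and 13.44). Of DNA replication genes 11 of 22 were above background, led by the helicase subunit Mcm2 (14.89 and 14.88), Pcna, the polymerase clamp (14.10 and 14.17), and Rrm2 of ribonucleotide reductase (14.07 and 14.05). The other 11 lay between the levels, with Gins1 (6.11 and 6.47) and Gins2 (6.13 and 6.33) at the lower end, and none was below the median of the negative controls.

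Inhibitors of the cell cycle were split. Cdkn1a, or p21 (14.32 and 14.30), and Cdkn1b, or p27 (14.28 and 14.27), were far above background, as were the p53 regulators Mdm2 (14.04 and 14.25) and Mdm4 (13.96 and 13.89) and the p53 target Ccng1 (14.48 and 14.26). Cdkn2a, the locus of p16 and p19ARF, measured 3.13 and 2.96, in rank 19017 of 19505, and its neighbour Cdkn2b, or p15, 4.16 and 4.14. Both were below the median of the negative controls on all 6 arrays. Cdkn1c, Trp63, Trp73 and Bbc3 had means from 4.44 to 5.08. Trp53 itself had no row under this symbol and was not analysed here. All 17 measured cytosolic ribosomal proteins and 13 of 14 housekeeping reference genes were above background, against 20.5% of all genes. The reference gene that was not, Gusb, measured 9.67 and 9.47. Of replication histones 14 of 18 were above background, and H3c1 (5.03 and 5.15) and the linker histone H1f5 (5.01 and 5.09) were below the median of the negative controls.

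Surface genes were above background in 32 of 99 cases (32.3%), against 20.5% of all genes. The count of 6 in 24 integrin subunits (25%) was near that share. The 6 were Itga4 (16.40 and 16.45) and Itgb1 (15.41 and 15.39), which form the receptor VLA-4 for VCAM1 and fibronectin, followed by Itgav, Itga6, Itgb5 and Itga9 with means from 10.33 to 11.28. Itgb3, a subunit linked to melanoma invasion, measured 8.68 and 8.41, and the leukocyte subunits Itgb2, Itgam, Itgae and Itgax had means between 3.03 and 4.43. Cadherins and adhesion molecules were above background in 10 of 21 cases, with Bsg, or CD147 (17.15 and 17.23), the hyaluronan receptor Cd44 (15.18 and 14.93), Ncam1 (14.75 and 14.57), N-cadherin Cdh2 (12.63 and 12.61) and Mcam (12.30 and 12.11) the highest. The epithelial genes Epcam and Cdh3 and the ligands Vcam1 and Icam1 had means from 3.66 to 4.39. Tetraspanins were above background in 10 of 17 cases, with Cd81 at 16.67 and 16.80, and the leukocyte members Cd37 and Cd53 at means of 3.87 and 3.75.

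Of 15 class I genes 4 were above background (26.7%, near the 20.5% of all genes), the chaperones Calr (18.05 and 17.97), Pdia3 (15.13 and 15.08) and Tapbp (10.28 and 10.37) and the light chain B2m (13.18 and 13.12). The heavy chains H2-K1 (6.61 and 6.90) and H2-D1 (4.90 and 4.83), the peptide transporters Tap1 (5.81 and 5.66) and Tap2 (4.36 and 4.54) and the immunoproteasome subunits Psmb9 (mean 3.96) and Psmb10 (mean 4.53) were not above background on any array. Heavy chain genes are near-identical copies of each other, so their probes may not separate them. None of 7 class II genes was above background, against 20.5% of all genes. Of checkpoint ligands and ligands of NK cells, Pvr (12.26 and 12.28) and the phagocytosis inhibitor Cd47 (11.80 and 11.78) were above background. That is 2 of 15 (13.3%, against 20.5% of all genes). Cd274, or PD-L1, measured 9.01 and 9.07, between the levels, and Pdcd1lg2, Cd80 and Cd86 were below the median of the negative controls with means of 4.26, 4.41 and 3.50.

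**Figure D4:**
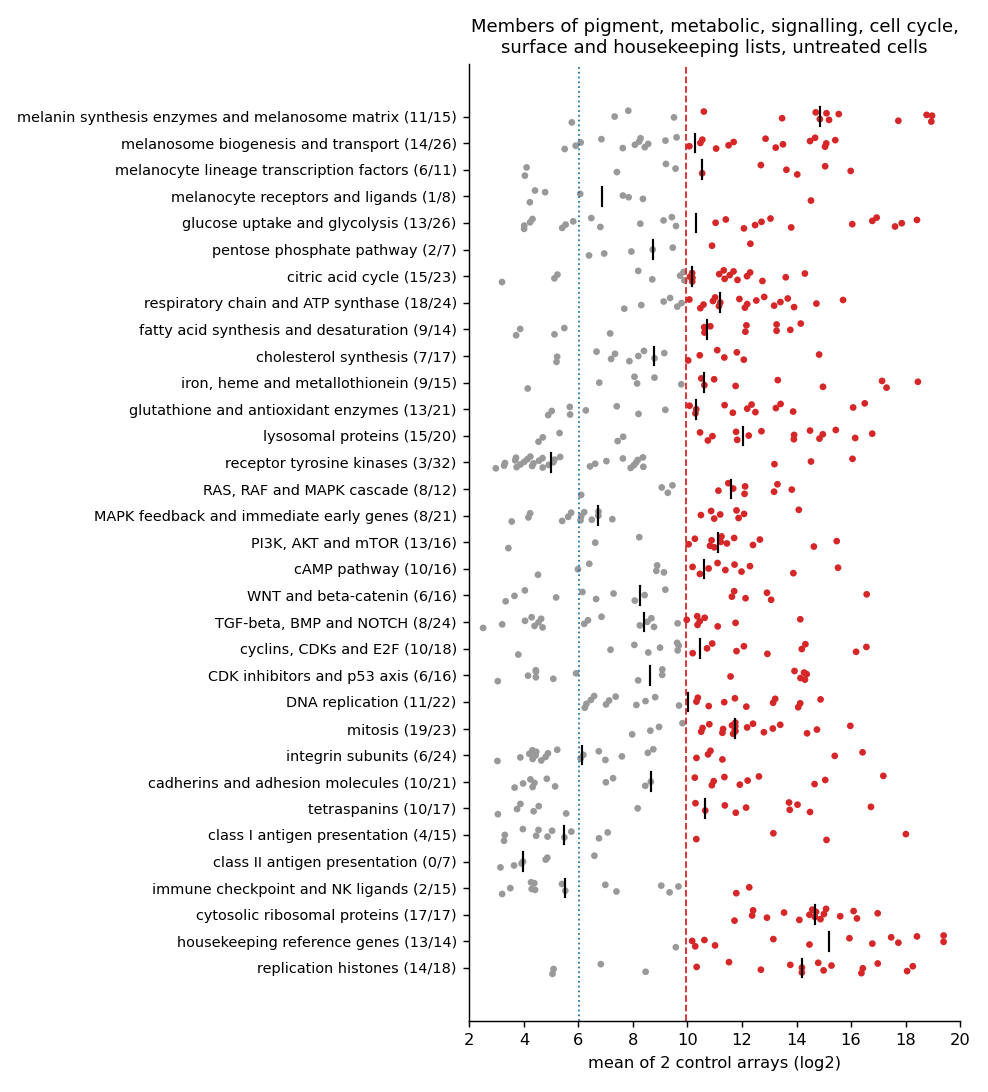
Mean log2 level on the 2 control arrays (x axis) of every measured member of 33 gene lists (y axis; number above background and number measured in parentheses), red above and grey not above the background level of 9.96 (dashed line), with the median of the negative controls at 6.01 (dotted line) and a vertical tick at each list's median. Points of the 17 ribosomal genes all lie to the right of the dashed line, those of the 7 class II genes all to the left, and 3 of 32 receptor tyrosine kinases lie to the right.

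Nearly all listed markers of other lineages were not above background. Genes outside these lists that are best known from other cell types, such as Gjc3 and Prkcq, gave high signals and are described further below. Of 153 measured markers of 14 other cell types and tissues, 2 (1.31%) were above background, against 20.5% of all genes, and 130 (85%) were below the median of the negative controls, against 51.7% of all genes. The 2 exceptions were Pmp22, a myelin protein of Schwann cells (11.28 and 11.31), and Tubb3, the neuronal beta-tubulin (10.97 and 10.81). Mbp, another myelin gene, lay just under the level at 9.86 and 9.91, and Nphs1 of the kidney podocyte (8.74 and 8.80) and Map2 of neurons (7.91 and 7.91) were the next. The other lists had no member above background, among them those of leukocytes (0 of 10, with Ptprc, or CD45, at 4.41 and 5.21), fibroblasts (0 of 10, Col1a1 at 5.67 and 5.64), keratinocytes (0 of 12, Krt5 at 3.84 and 3.74, Krt14 at 4.22 and 3.93) and endothelium (0 of 10, Pecam1 at 3.79 and 3.61, Cdh5 at 5.10 and 4.58). Muscle, liver, erythroid, fat, intestinal, germ cell, pluripotency and lung, kidney and pancreas markers gave 0 of 12, 0 of 11, 0 of 7, 0 of 11, 0 of 12, 0 of 12, 0 of 12 and 0 of 12. In the control group, Alb measured 5.76 and 5.83, Myod1 2.87 and 2.99, Pou5f1 3.45 and 3.49 and Nkx2-1 3.20 and 3.07.

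Neural crest and stem-like genes were not above background in any of 14 cases, against 20.5% of all genes, with a median of 4.76. Snai2 (9.86 and 9.68), a transcription factor that normal melanocytes also express, came nearest, and Sox2 (2.98 and 2.99), Prom1 (3.07 and 3.56), Foxd3 (4.76 and 4.71), Twist1 (4.93 and 4.65) and Ngfr (5.13 and 5.13) were below the median of the negative controls. Of genes that mark dedifferentiated melanoma 1 of 11, Jun, was above background (9.09%, against 20.5% of all genes). Axl measured 8.09 and 8.26, Zeb1 5.41 and 5.46, Tnc 3.89 and 3.77 and Nt5e 3.57 and 3.69. Mesenchymal and matrix genes were above background in 8 of 25 cases (32%, against 20.5% of all genes), with a median of 5.46 beside 5.83 over all genes. The 8 included the intermediate filament Vim (16.67 and 16.63), Sparc, a secreted matrix protein (16.31 and 16.39), Timp2 (13.54 and 13.51) and Mmp14 (11.21 and 11.17). Mmp9 (3.15 and 3.65), Lox (3.72 and 3.54) and Col3a1 (3.23 and 3.29) were below the median of the negative controls.

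**Figure D5:**
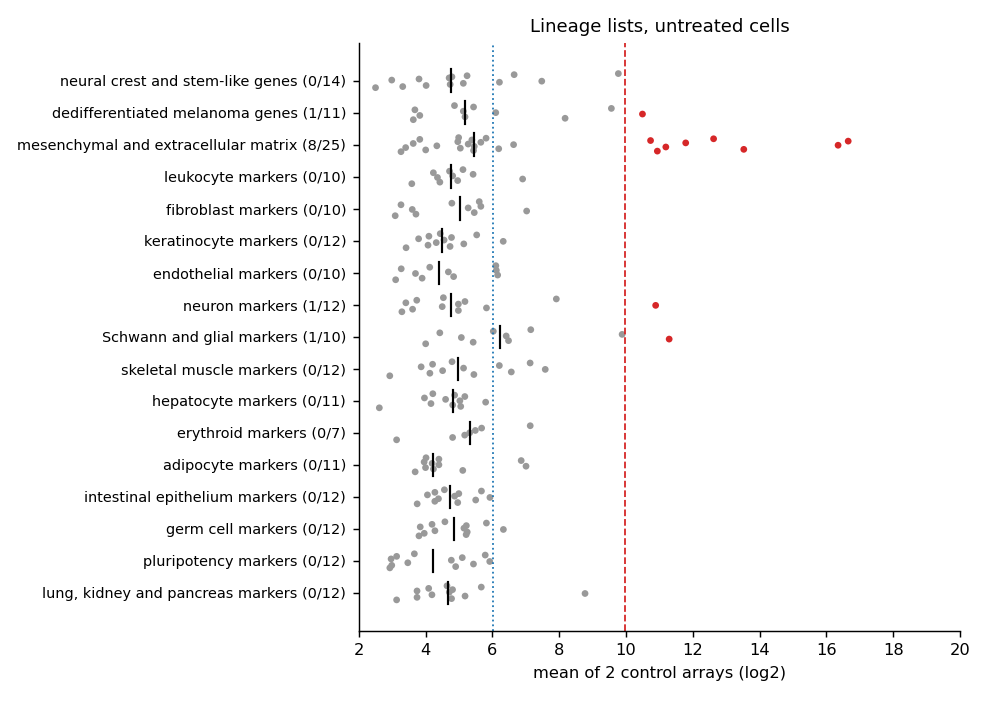
Mean log2 level on the 2 control arrays (x axis) of every measured member of 17 lists of lineage genes and markers of other cell types (y axis; number above background and number measured in parentheses), red above and grey not above the background level of 9.96 (dashed line), with the median of the negative controls at 6.01 (dotted line) and a vertical tick at each list's median. Of the 14 lists of other cell types, 2 hold a red point (Tubb3 and Pmp22), and 8 of 25 mesenchymal and matrix genes are red.

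Most genes above background in control were also above it in the treated cells. Of the 4002 genes above background in control, 3629 (90.7%) were above the own level of each of the 6 arrays. At 2.5 µM 3892 (97.3%) had a mean above that group's level and at 40 µM 3897 (97.4%). The 110 and 105 genes that did not were near the level in control, with control means of at most 10.72 and 10.80. In the other direction, 254 genes at 2.5 µM and 345 at 40 µM were above the group's level but not above background in control. Such a call does not measure change, since a gene far above the level can change and still count as shared. Counted against its own negative controls, each control array had 3983 and 4013 genes above background, the 2.5 µM arrays 4362 and 3940 and the 40 µM arrays 4566 and 3939. The groups overlapped, and the difference between the control mean of 3998 and the treated mean of 4201.75 gave p = 0.6 in an exact two-sided permutation test, whose smallest possible p is 0.0667. Replicate 1 of each treated group had more genes above background than every other array, and the part this has in the results was not tested.

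No gene differed from control by limma at an adjusted p under 0.05, at 40 µM (0 of 19505 genes, 0%, smallest adjusted p 0.334) or at 2.5 µM (0 of 19505, 0%, smallest adjusted p 0.479). With no adjustment, 2349 genes had a p under 0.05 at 40 µM and 1877 at 2.5 µM. Without 40 µM replicate 2, with the remaining array of that group assumed to vary like the others, 2235 genes passed. The levels of the 4 markers on the treated arrays were close to control for Tyrp1 (19.05 and 19.02 at 2.5 µM, 19.21 and 18.88 at 40 µM), Dct (19.02 and 19.06, 18.91 and 18.93) and Tyr (14.56 and 14.90, 14.43 and 14.63). Mitf measured 15.83 and 15.88 at 2.5 µM and 15.10 and 15.51 at 40 µM, so both arrays at 40 µM were under both controls, with a log2 difference of -0.68 (standard error 0.18, 95% interval -1.11 to -0.25, limma adjusted p = 0.3495). Kit measured 6.68 and 6.75 at 40 µM, also under both controls, with the same limma adjusted p.

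Among genes above background in control, the smallest unadjusted p at 40 µM belonged to Srxn1, the sulfiredoxin that repairs peroxiredoxins, with 10.21 and 10.43 in control, 9.63 and 9.57 at 2.5 µM and 11.85 and 11.78 at 40 µM. The arrays of the 3 groups did not overlap, and the log2 difference at 40 µM was 1.49 with a standard error of 0.19 (limma adjusted p = 0.334). Pdia3 (16.45 and 16.16 at 40 µM) and Pgd (13.76 and 13.57 at 40 µM) were higher than both controls in the same contrast, and Coq8a, of coenzyme Q synthesis, was lower (10.37 and 10.49 in control, 9.01 and 9.21 at 40 µM). At 2.5 µM the smallest p was that of 1700088E04Rik, at 11.80 and 11.92 in control and 9.97 and 10.34 at 2.5 µM (limma adjusted p = 0.479). Lhfpl2, a tetraspan membrane protein, was among the 10 smallest p-values in both contrasts, with 10.50 and 10.52 in control, 11.52 and 11.48 at 2.5 µM and 11.51 and 11.47 at 40 µM. Both contrasts share the control arrays, so the second of these results is not independent of the first.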

How the data were processed

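Expression was measured on single-colour arrays of 3 groups of B16F10 cells with 2 arrays each. The log2 values were made by the authors with RMA, a method that removes differences in overall signal between arrays (tools per the submitters' processing notes: RMA, Affymetrix Expression Console, Transcriptome Analysis Console, with no versions). The deposited log2 values reached 19.84 on the control arrays, above the range of a 16-bit scanner image; the step behind this scale is not known, and differences are given on it. The protocols speak of 3' expression arrays while the features are named as transcript clusters, and a genome build for the array is not given in the sources used here.

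Samples were grouped by title, source name and treatment; some description fields contradict these (a 2.5 µM sample described as medium, 3 others with another treatment), but not those of the controls. Of 28846 features, 6640 were controls, 19572 clusters had 1 gene symbol in the platform annotation, and 2634 had no symbol here and were left out, 421 of them above background. For 55 genes with several clusters the one with the highest mean over the 6 arrays was kept. No column of another series was present (0 columns).

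The 50 gene lists hold 832 genes, of which 756 were measured, 1 through a synonym, and 76 were not analysed here. The members and lists were chosen with earlier results of these data known. Named are the 4 markers, the 30 highest genes, of each list up to 8 highest and 6 lowest members, members within 0.3 of the background level, other-lineage markers above it, the 10 genes above background with the widest gap between the control arrays and the 10 with the smallest p in each contrast. The level descriptions carry no test. Treated groups were compared with control with limma 3.58.1 (R 4.3.3) over all 6 arrays (two-sided, variance prior with trend, 3 residual degrees of freedom, Benjamini-Hochberg over all genes, threshold 0.05), after the script was tested on simulated data. Alternatives were other background levels, each control array left out, the other cluster choice, quantile normalization, array weights, no trend, a filter to genes above background, each array left out and a replicate block. Equal replicate numbers are not said to mark a shared culture or day. Arrays give no depth, and their number limits the precision.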

Additional observations from a re-analysis of the deposited data

How the results depend on the processing

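The number of genes above background followed the level chosen. It was 4002 at the 95th percentile of the negative controls (9.96), 751 at their 99th percentile (13.57), 1963 at their median plus 3 MAD (11.74) and 8128 at the 95th percentile of the antigenomic features alone (6.79). Markers of other lineages above background numbered 2, 0, 0 and 13 in the same order, and the melanin synthesis members 11, 9, 10 and 14. Of the 50 lists, the count stayed within 1.5 times its value for 21 at the 99th percentile, 31 at the median plus 3 MAD and 29 with the antigenomic features. All 50 did so when each array was set against its own level, with the lowest cluster per gene, after quantile normalization, without either control array and with only genes whose control arrays lay within 0.5. The share of genes above the level whose promoter held TCATGTG was 2.58% at the 95th and 3.66% at the 99th percentile.

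Leaving out 1 array at a time, the genes called at 40 µM ranged from 0 to 2235, the latter without 40 µM replicate 2 (1456 higher, 779 lower), and at 2.5 µM the count was 0 throughout. The cause was not tested. With a replicate block the count was 0 in both contrasts (unadjusted p under 0.05 for 2887 genes at 40 µM and 2079 at 2.5 µM). The labels do not say what arrays with equal replicate numbers share. The differences between replicates correlated at -0.0045 for control and 2.5 µM and at -0.0121 for control and 40 µM. For 2.5 µM and 40 µM the correlation was 0.386, and its cause was not tested. No gene was called with only genes above background, without trend, after quantile normalization or with array weights, where the smallest adjusted p was 0.0799, at 2.5 µM. With 2 arrays a group, small differences were not detectable, and larger ones did not pass either. The gene Fryl, for instance, differed from control by 1.40 (log2) at 40 µM, with a limma adjusted p = 0.334. The lack of called genes therefore does not show that no gene changed.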

Other observations

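The genes in this section were chosen after their values were seen, by reading down the ranked control profile outside the gene lists, and no test was run on them. They are single genes and stand for no group. Slc3a2 and Slc7a5, the chains of the large neutral amino acid transporter, measured 17.26 and 17.26, and 16.71 and 16.63, on the control arrays. Atf4 measured 16.65 and 16.56, Asns, asparagine synthetase, 16.47 and 16.52, the pseudokinase Trib3 14.74 and 14.90, and Sqstm1, an autophagy receptor, 16.21 and 16.21.

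Some other genes in the upper ranks are best known from other cell types. Syt4, a synaptotagmin, measured 16.03 and 16.11, Gjc3, a glial connexin, 16.44 and 16.45, Glrb, a subunit of the glycine receptor, 15.35 and 15.50, and Nrcam, a neural adhesion molecule, 14.66 and 14.59. Sirpa, the receptor for Cd47 on myeloid cells, measured 16.80 and 16.84, and Prkcq, a protein kinase C known from T cells, 16.83 and 16.93. Epha3, an ephrin receptor that the receptor tyrosine kinase list did not hold, measured 14.87 and 14.84. The myosin Myo7a (16.80 and 16.72), the secreted proteins Apoe (15.29 and 15.29), Lgals1 (15.73 and 15.69) and Aebp1 (15.83 and 15.91) and the transcriptional regulators Cited2 (16.69 and 16.68) and Plagl1 (16.49 and 16.43) were also in the upper ranks.

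The Y-linked genes Eif2s3y (2.59 and 2.73), Kdm5d (3.46 and 3.53) and Uty (3.75 and 3.59) were below the median of the negative controls on the control arrays and on the 4 treated ones.

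Each array was also set against the 95th percentile of its own negative controls. Of the 4002 genes above background in control, 22 were above on no treated array, among them E2f1 and the syndecan Sdc1. Of all 19505 genes, 44 were above on all 4 treated arrays and on no control array. Among these were Fh1, Aco1, the chaperone Hsph1 and the kinetochore gene Spc25. Both sets were picked by the calls, so values on opposite sides of the level follow from the choice. Some differed little, such as Maco1 by 0.12 (log2) at 2.5 µM. E2f1 measured 10.11 and 10.27 in control against 9.31 to 10.01 at 40 µM, and Fh1 9.92 and 9.86 against 11.17 and 10.46. None of these differences passed the adjusted threshold in limma.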
